A study of Mus musculus with 11 samples.

Results

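The genes described here are 10 that belong to the stress response run by the transcription factor ATF4: Atf4 itself, Ddit3, Trib3, Chac1, Asns, Phgdh, Psat1, Shmt2, Mthfd2 and Fgf21. They were found by gene symbol among 54532 genes of a pancreas count table and 46078 genes of an adipose count table, and all 10 were counted and passed the filter on low counts in both tissues. A second identifier of Ddit3, overlapping the first, had 0 counts in every pancreas library and was left out. RNA-seq libraries came from wild type male C57BL/6 mice at 16 weeks of age. Control mice ate normal chow for 12 weeks and, by the study's methods, were given saline. The mice with obesity-related, alcohol-induced acute pancreatitis (OA-AP) ate a high-fat diet for the same time and then had 2 intraperitoneal injections of ethanol at 2 g/kg, 1 h apart. Diet, ethanol and pancreatitis therefore changed together and cannot be told apart. There were 2 control and 3 OA-AP pancreas libraries, and 3 control and 3 OA-AP adipose libraries, the adipose tissue being epididymal fat by the study's methods. The labels do not say which libraries came from the same mouse, nor that each came from its own mouse, so the p-values measure only the spread between these libraries.

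ATF4 is the effector of the integrated stress response. Kinases that sense amino acid shortage, misfolded protein in the endoplasmic reticulum, viral RNA or lack of heme phosphorylate the initiation factor eIF2, which lowers protein synthesis in general while ATF4 is translated more. ATF4 is controlled largely through upstream open reading frames in its mRNA, so the mRNA level is not a measure of the protein. In the nucleus ATF4 pairs with C/EBP factors and drives genes for amino acid uptake and synthesis, serine and one-carbon metabolism, glutathione turnover and feedback on the response. The acinar cells of the pancreas make very large amounts of secretory protein and depend on these stress pathways.

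ATF4 and its C/EBP partners bind a composite element, the C/EBP-ATF response element. The 8-base core TGATGNAA was searched on both strands in RefSeq promoters (build GRCm38.p6, 250 bases before to 50 after each gene's start), in which all 10 genes had an entry. It was found in 4 of the 10 genes, against 3.97% of 32851 promoters and 4.51% of 27025 genes. The RefSeq starts of Mthfd2 and Psat1 lie inside the gene spans of the deposited table, so the outer ends of these genes were not searched. The cAMP response element TGACGTCA, which does not overlap that core, was found in 0 of the 10, against 1.79% of promoters. A match of letters is a description and not a binding site. The stretches around the 4 matches are printed 5′ to 3′ in the direction of the gene, because they hold the gene with the largest fall among the 10 (Fgf21) and 3 textbook ATF4 targets; capitals mark the match, which reads on the opposite strand except in Asns.
Fgf21 (chr7:45615562-45615689, minus strand, match 139 to 132 bases before the start): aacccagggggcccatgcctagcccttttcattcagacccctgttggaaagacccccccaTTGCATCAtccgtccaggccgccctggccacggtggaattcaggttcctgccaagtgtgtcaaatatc
Chac1 (chr2:119350992-119351116, plus strand, match 193 to 186 bases before the start): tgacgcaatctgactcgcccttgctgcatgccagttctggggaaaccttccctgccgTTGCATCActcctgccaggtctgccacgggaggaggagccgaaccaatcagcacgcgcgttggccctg
Asns (chr6:7693214-7693243, minus strand, match 23 to 16 bases before the start): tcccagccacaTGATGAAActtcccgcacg
Trib3 (chr2:152344028-152344057, minus strand, match at bases 15 to 22 counted from the start): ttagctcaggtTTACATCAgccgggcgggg
Fgf21 and Chac1 carried the same 8 letters. The genes with a match did not move alike in the data: in the pancreas Fgf21 and Asns passed the test downwards and Chac1 and Trib3 did not pass it, and in adipose tissue Trib3 alone of these 4 passed it.

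Libraries held 14188832 to 17238919 counts in the pancreas and 20825177 to 27928097 in adipose tissue. Acinar marker genes (11 listed, among them digestive enzymes) took 48.5 to 49.8% of the counts in control pancreas and 37.7 to 40.4% in OA-AP pancreas, and 8 of the 11 passed the test downwards. Values below are CPM, read counts scaled to a common library size, with TMM factors, which assume that most genes do not change; scaling by library totals alone instead raises the median log2 change of all tested pancreas genes by 0.71 and lowers that of adipose genes by 0.15. Pancreas changes are therefore also given relative to the median of all tested genes, a measure that was close to equal under both scalings for the 10 genes. That near equality follows from the measure, since the change of scaling moves every gene by about the same step. The near equality is therefore not a further check, and the measure, like TMM, takes most genes as unchanged. In adipose tissue the acinar markers took at most 0.00166% of the counts except in control replicate 2, where they took 0.604%, so adipose results are also given without that library where they differ. In bulk tissue, fewer cells of a type and less RNA per cell cannot be told apart.

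In the pancreas, each of the 10 genes was lower in OA-AP or did not pass the test with TMM factors, and Atf4 mRNA itself did not pass it. Of the 10 genes, 6 passed the test downwards (adjusted p under 0.05 in edgeR's quasi-likelihood test and a change of at least 1.5-fold), against 13.5% of the 12884 genes tested, and 0 passed it upwards, against 16.2%. In either direction 29.8% of all tested genes passed. The 10 genes were chosen with earlier results of these data known, so these shares are a description and not a test of the list. At an unadjusted p under 0.05, 8 of the 10 differed, against 44.8% of all tested genes. The CPM of the groups did not overlap for 8 of the 10 genes, against 62.3% of all tested genes. With library totals alone, 2 genes passed downwards (Fgf21 and Ddit3) and 1 upwards (Trib3), so the count of 6 rests on the scaling. Of the 12884 genes, 6349 passed with library totals, 5843 of them upwards. TMM factors computed without the acinar markers and the 50 most abundant genes gave 6 of the 10 genes downwards and 0 upwards. The median log2 change of the 10 genes was -0.74 with TMM factors and -0.07 with library totals, where the medians of all tested genes were 0.04 and 0.75. The summed acinar markers moved with these genes, from 612310 to 713438 CPM in control pancreas and from 286445 to 364329 CPM in OA-AP pancreas, and 8 of 11 fell. Ductal markers went from 185 to 189 CPM to 84.1 to 98.5 CPM (2 of 5 tested fell). Most of that sum was Muc1, with means of 144 and 49.1 CPM. Krt19 went the other way, from 11.9 to 20.1 CPM, and did not pass the test. Islet markers went from 979 to 1200 CPM to 1353 to 1642 CPM (2 of 7 rose, Iapp and Chga). Most of the islet sum was Ins2, with means of 616 and 915 CPM, under the 1.5-fold cut-off. Gcg and Sst went the other way, from 112 to 88.9 CPM and from 13.6 to 10.5 CPM, and did not pass the test. Adipocyte markers went from 46.9 to 61.6 CPM to 135 to 271 CPM (2 of 3 tested rose). Most of the adipocyte rise was Pnpla2, from 18.6 to 130 CPM. Adipoq, Plin1, Cidec and Lep were too low to test, with group means of at most 0.111 CPM. The part of these lists in the results was not tested. With control replicate 1, control replicate 2, OA-AP replicate 1 or OA-AP replicate 2 left out, 4, 5, 4 and 5 genes passed downwards, and without OA-AP replicate 3, 7 did. Without a filter on low counts 6 genes also passed downwards, but Chac1 and Psat1 were among them in place of Asns and Phgdh.

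**Figure D1:**
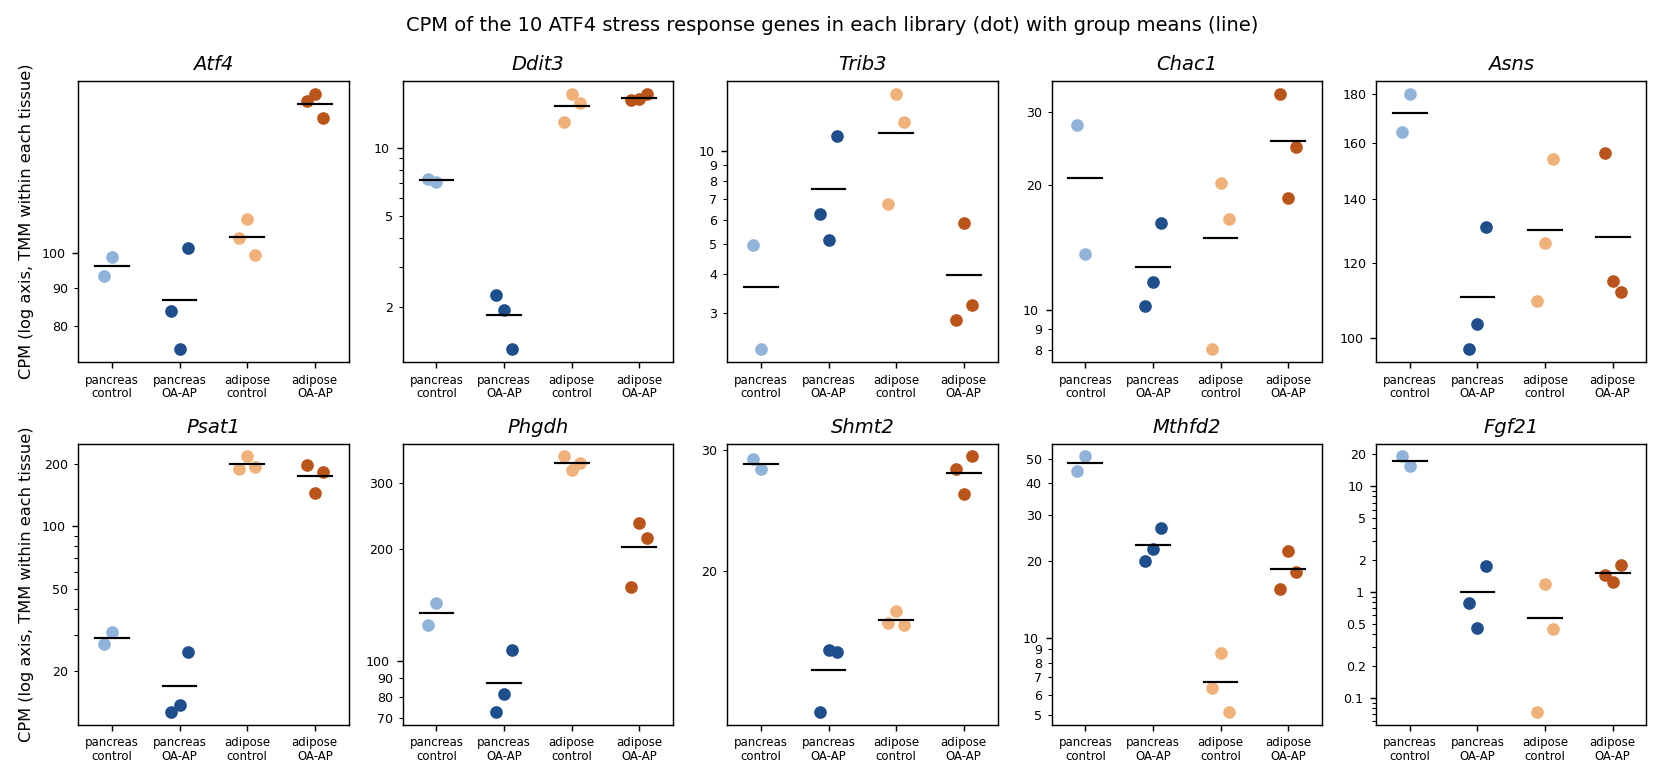
Each panel plots 1 gene, with CPM on a log axis against the 4 groups; dots are libraries (2 control pancreas, 3 in each other group) and lines are group means. Fgf21 and Ddit3 are far lower in OA-AP than in control pancreas, Mthfd2 and Shmt2 are lower in OA-AP pancreas and higher in OA-AP adipose tissue, and the axes differ between panels.

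The largest change among the 10 was in Fgf21, a hormone of the FGF family that is secreted by liver, fat and pancreatic acinar cells and is induced by ATF4. It stood at 19.0 and 15.4 CPM in the control pancreas libraries and at 0.788, 0.458 and 1.78 CPM in the OA-AP libraries. The lowest control library was thus several times above the highest OA-AP library. The log2 change was -4.07 (SE 0.42, adjusted p = 0.000628), a 16.8-fold fall, and -4.11 relative to the median of all tested genes. At percentile 0.264 of all log2 changes it was among the strongest falls in the tissue, and it passed the test under both scalings, at -3.40 with library totals.

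Ddit3, which encodes CHOP, the transcription factor through which a prolonged response promotes cell death, also fell in the pancreas. Its levels were 7.29 and 7.08 CPM in the controls and 2.26, 1.95 and 1.31 CPM in OA-AP, with no overlap. The log2 change was -1.96 (SE 0.29, adjusted p = 0.00206), a 3.90-fold fall, and -1.24 with library totals (adjusted p = 0.0149). Atf4, upstream of Ddit3, stood at 93.4 and 98.9 CPM in the controls and at 83.8, 74.6 and 102 CPM in OA-AP. The highest OA-AP library lay above both controls. Its log2 change of -0.15 (SE 0.16, adjusted p = 0.490) did not pass the test. With library totals it was 0.56 (adjusted p = 0.0122), under the 1.5-fold cut-off, so the sign of the Atf4 value depends on the scaling. Relative to the median of all tested genes Ddit3 was at -2.004 and Atf4 at -0.19.

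Trib3, a pseudokinase that binds ATF4 and CHOP and damps the response, was the only one of the 10 above the median of all tested genes in the pancreas. Its levels were 4.98 and 2.29 CPM in the controls and 6.25, 5.15 and 11.1 CPM in OA-AP. The OA-AP libraries lay above the controls, by little for the nearest pair. The log2 value of 1.03 (SE 0.44, adjusted p = 0.111) did not pass the test with TMM factors and did with library totals (1.70, adjusted p = 0.00865). It was 1.72 without control replicate 1, 0.60 without control replicate 2 and 0.58 without OA-AP replicate 3, and passed in none of these. Chac1, a cytosolic enzyme that degrades glutathione, stood at 28.0 and 13.7 CPM in the controls and at 10.2, 11.7 and 16.2 CPM in OA-AP. The groups overlapped and the controls differed from each other by more than the OA-AP libraries did. Its log2 value was -0.72 (SE 0.32, adjusted p = 0.128). Without control replicate 1 it was -0.10, and without control replicate 2 it was -1.14 and passed the test (adjusted p = 0.0490). It also passed without a filter on low counts (-0.65, adjusted p = 0.00317). Relative to the median of all tested genes it was -0.76, and Trib3 was at 0.99.

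The mitochondrial one-carbon enzymes Mthfd2 and Shmt2 both fell in the pancreas. Mthfd2, which oxidises methylene-tetrahydrofolate, went from 44.9 and 51.0 CPM to 19.95, 22.2 and 26.8 CPM, a log2 change of -1.06 (SE 0.16, adjusted p = 0.00209). Shmt2, which splits serine into glycine and a one-carbon unit, went from 29.2 and 28.2 CPM to 12.4, 15.3 and 15.2 CPM, a log2 change of -1.002 (SE 0.15, adjusted p = 0.00198). In both genes every OA-AP library lay well below every control. With library totals the values were -0.35 and -0.30 and neither passed the test (adjusted p = 0.0798 and 0.176). Relative to the median of all tested genes the changes were -1.10 and -1.04.

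Asns and Phgdh also fell with TMM factors. Asns, which makes asparagine, went from 164 and 180 CPM to 97.4, 103 and 131 CPM, a log2 change of -0.64 (SE 0.16, adjusted p = 0.0164). Phgdh, the first enzyme of serine synthesis, went from 125 and 143 CPM to 72.9, 81.5 and 107 CPM, a log2 change of -0.62 (SE 0.18, adjusted p = 0.0302). OA-AP replicate 3 was the highest of its group in both genes, and no OA-AP library reached a control. Relative to the median of all tested genes they were at -0.68 and -0.66 with TMM factors and at -0.69 and -0.67 with library totals. As log2 changes both calls ended under library totals (0.06 and 0.08), and without a filter on low counts both fell under the 1.5-fold cut-off (-0.57 and -0.55). The Asns call also ended without either control or without OA-AP replicate 1 (adjusted p = 0.0867, 0.148 and 0.0819), and that of Phgdh without either control or without OA-AP replicate 1 or 2 (adjusted p = 0.109, 0.217, 0.120 and 0.0587).

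Psat1, the aminotransferase that follows Phgdh, stood at 26.9 and 31.0 CPM in the controls and at 12.7, 13.7 and 24.6 CPM in OA-AP. Only OA-AP replicate 3 came near the controls. The log2 value of -0.77 (SE 0.29, adjusted p = 0.0767) did not pass the test, and without OA-AP replicate 3 it was -1.18 (adjusted p = 8.97e-06). It passed without a filter on low counts too (-0.69, adjusted p = 0.000467), and stood at -0.81 relative to the median of all tested genes. In that library the summed neutrophil markers stood at 90.6 CPM, against 3.43 and 12.3 CPM in the other OA-AP libraries and 1.03 to 1.89 CPM in the controls; their part in the Psat1 value was not tested.

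**Figure D2:**
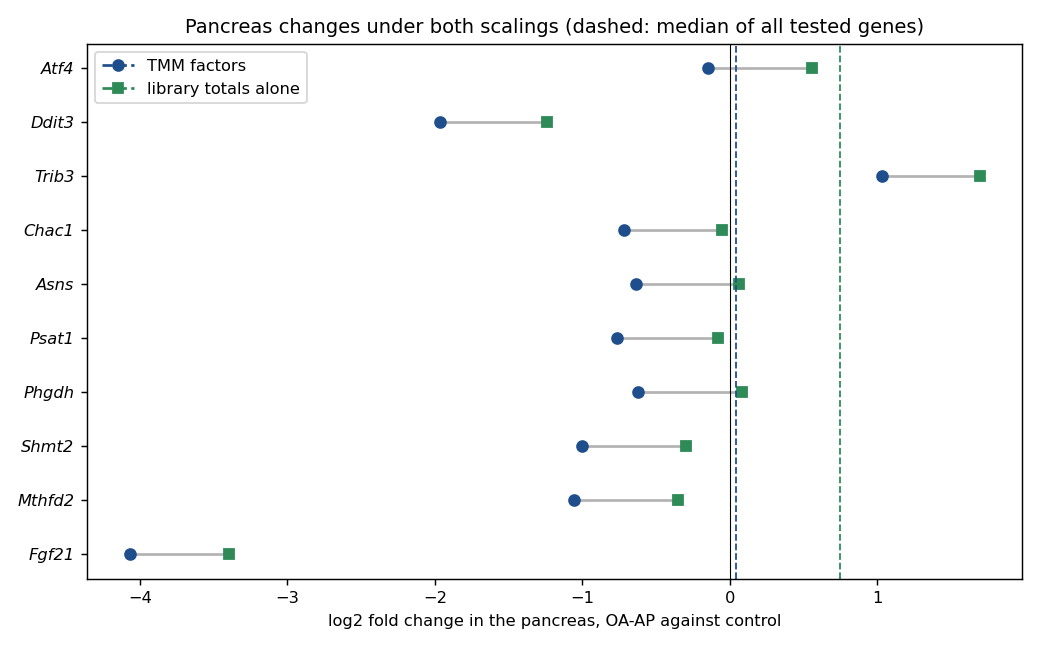
The log2 fold change of each gene in the pancreas is plotted with TMM factors (circles) and with library totals alone (squares); dashed lines mark the median of all tested genes under each scaling, 0.04 and 0.75. All squares lie to the right of their circles by nearly the same step, and only Trib3 lies to the right of the dashed line of its own scaling.

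In adipose tissue the 10 genes split. Atf4, Shmt2 and Mthfd2 rose in OA-AP, Phgdh and Trib3 fell, and the other 5 did not pass the test. The 3 upward calls stand against 12.1% of the 15839 genes tested, and the 2 downward calls against 13.0%, or 25.1% in either direction. At an unadjusted p under 0.05, 5 of the 10 differed, against 47.4% of all tested genes, and for 6 of the 10 the groups did not overlap, against 52.4% of all tested genes. With library totals 1 of the 10 passed upwards (Mthfd2) and 2 downwards, where 4250 of the 15839 genes passed, 1365 of them upwards. Neutrophil markers moved with these results: all 5 tested rose, and the summed level of the list went from 5.68 to 12.1 CPM in the controls to 165 to 186 CPM in OA-AP. The fibroblast list went from 2976 to 3780 CPM to 1816 to 2319 CPM (3 of 6 fell: Dcn, Col1a1 and Col3a1). Pdgfra, Pdgfrb and Acta2 went the other way, from means of 65.0, 95.4 and 122 to 85.1, 113 and 161 CPM, and did not pass the test. Of the lymphocyte markers, 4 of 6 fell. The adipocyte list stood at 28987 to 30127 CPM in the controls and 32189 to 34292 CPM in OA-AP (1 of 7 rose and 1 fell). Most of that sum was Fabp4, with means of 16408 and 18763 CPM, which did not pass. Lep rose from 388 to 2021 CPM and Plin1 fell from 1536 to 553 CPM. The part of these marker lists in the results was not tested.

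Mthfd2 rose most among the adipose genes that passed. It went from 6.35, 8.69 and 5.14 CPM to 15.4, 21.8 and 18.1 CPM, a log2 change of 1.46 (SE 0.22, adjusted p = 0.00321) or 2.75-fold. Shmt2 went from 16.8, 17.5 and 16.6 CPM to 28.1, 25.9 and 29.4 CPM, a log2 change of 0.71 (SE 0.093, adjusted p = 0.00198). The groups were far apart in both genes relative to the spread within them. With library totals Shmt2 was at 0.56, under the 1.5-fold cut-off. Atf4 went from 105, 111 and 99.5 CPM to 160, 163 and 152 CPM, a log2 change of 0.59 (SE 0.090, adjusted p = 0.00326). This 1.504-fold rise sits on the 1.5-fold cut-off, and in 6 of 14 other settings it fell under the cut-off used, with values down to 0.44. In those 6 settings the adjusted p stayed at or under 0.0190.

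Phgdh, the most abundant of the 10 in adipose tissue, fell from 354, 325 and 341 CPM to 157, 235 and 214 CPM, a log2 change of -0.75 (SE 0.16, adjusted p = 0.0103). Its neighbours in amino acid synthesis did not pass the test. Psat1 stood at 189, 217 and 194 CPM in the controls and at 199, 145 and 184 CPM in OA-AP, a log2 value of -0.19 (SE 0.14, adjusted p = 0.322). Asns stood at 109, 126 and 154 CPM and at 156, 115 and 112 CPM, a log2 value of -0.02 (SE 0.18, adjusted p = 0.925). The groups overlapped in both genes.

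Trib3 fell in adipose tissue, from 6.72, 15.3 and 12.4 CPM to 2.85, 5.87 and 3.18 CPM. The log2 change was -1.52 (SE 0.39, adjusted p = 0.0217). The lowest control lay just above the highest OA-AP library, and the call ended without control replicate 2 or 3 or without OA-AP replicate 1 or 3 (-1.25, -1.45, -1.33 and -1.38, adjusted p = 0.0630, 0.0717, 0.0576 and 0.0674). Ddit3 stood at 12.9, 17.2 and 15.6 CPM in the controls and at 16.2, 16.3 and 17.2 CPM in OA-AP, a log2 value of 0.12 (SE 0.13, adjusted p = 0.498). Chac1 stood at 8.04, 20.2 and 16.5 CPM and at 33.2, 18.6 and 24.7 CPM, a log2 value of 0.77 (SE 0.36, adjusted p = 0.134). The groups overlapped in both.

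Fgf21 was counted in few reads in adipose tissue, with 2, 28 and 13 counts in the controls and 28, 26 and 36 in OA-AP. In CPM these were 0.0738, 1.19 and 0.443 against 1.45, 1.25 and 1.82, so the groups were close but did not overlap. The log2 value of 1.44 (SE 0.69, adjusted p = 0.146) did not pass the test. Its highest control was replicate 2, the library with 0.604% acinar counts, and without that library the value was 2.50 (adjusted p = 0.0277). Replicate 2 was the highest control for 8 of the 10 genes, all but Asns and Phgdh. Without it, 4 genes passed upwards and 1 downwards. The part of acinar RNA in these values was not tested.

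**Figure D3:**
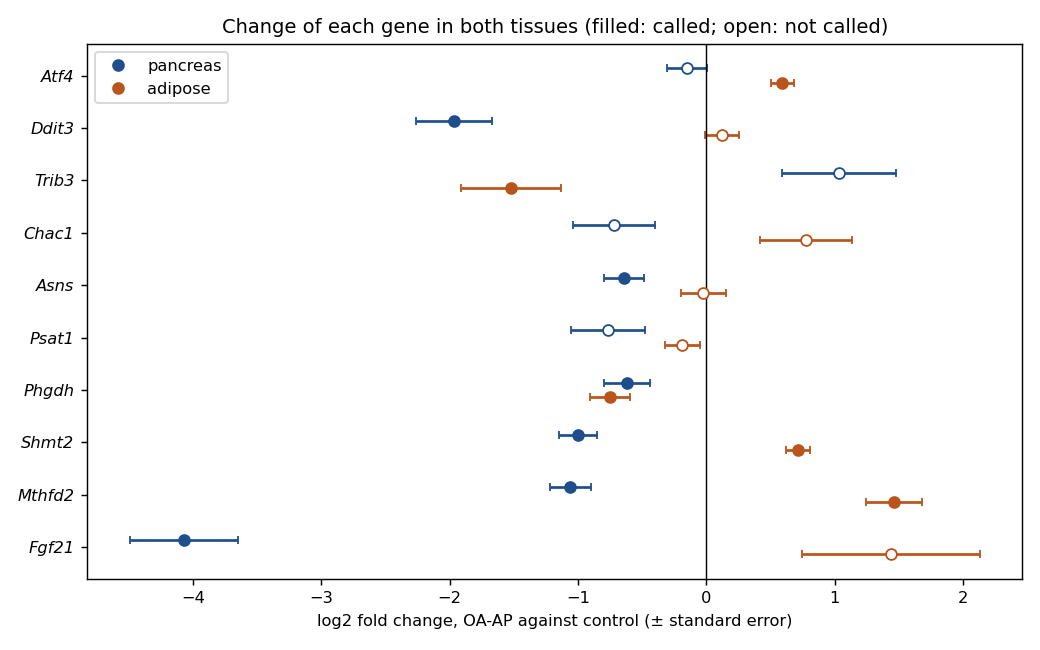
Log2 fold changes of OA-AP against control are plotted for the 10 genes, with bars of 1 standard error; pancreas and adipose tissue are in different colours, filled where the gene passed the test and open where it did not. Shmt2 and Mthfd2 lie on opposite sides of 0 with filled symbols in both tissues, Phgdh lies below 0 in both, and Fgf21 in the pancreas is the farthest from 0.

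The log2 values of 7 of the 10 genes had opposite signs in the 2 tissues. The difference itself was tested as an interaction in a joint fit of all 11 libraries, where a negative value means a lower change in the pancreas than in adipose tissue. By adjusted p under 0.05 alone, 5 genes passed downwards, against 10.8% of 17046 genes, and 1 upwards, against 10.5%. The one-carbon enzymes differed clearly between tissues: Mthfd2 by -2.51 (SE 0.29, adjusted p = 0.000178) and Shmt2 by -1.70 (SE 0.16, adjusted p = 6.62e-05). Fgf21 differed by -5.51 (SE 0.89, adjusted p = 0.00172) and Ddit3 by -2.08 (SE 0.29, adjusted p = 0.000562). Trib3 was the gene that passed in the other direction, by 2.56 (SE 0.67, adjusted p = 0.0205), and it lost the call without pancreas control replicate 2 (2.11, adjusted p = 0.102). Atf4 differed by -0.73 (SE 0.18, adjusted p = 0.0149), but with library totals by 0.11, and it lost the call without pancreas control replicate 2 (adjusted p = 0.0629) or adipose control replicate 3 (adjusted p = 0.0522). Fgf21, Ddit3, Mthfd2 and Shmt2 passed the test under every alternative run that tested them. For Chac1, Asns, Psat1 and Phgdh the differences were -1.48, -0.60, -0.57 and 0.14 with adjusted p = 0.0844, 0.122, 0.260 and 0.772, and a p above the threshold does not show that the changes were alike. With library totals Phgdh passed the test upwards, at 0.97 (adjusted p = 0.00674).

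The order of the levels within each group, in CPM per kilobase of gene length was then compared between groups. In control pancreas Asns was highest at 63.0 (SD 4.1, n = 2), then Phgdh at 53.9 (SD 5.1) and Atf4 at 40.8 (SD 1.6), and these did not overlap. Fgf21 followed at 18.1 (SD 2.7). Mthfd2 at 13.7, Chac1 at 12.7 and Shmt2 at 9.23 overlapped with their neighbours, and Psat1 at 6.81, Ddit3 at 4.20 and Trib3 at 1.71 came last without overlap. In OA-AP pancreas Asns, Atf4 and Phgdh (40.4, 36.8 and 35.1) could no longer be ordered, nor could Chac1 and Mthfd2 (7.75 and 6.59) or Shmt2, Psat1 and Trib3 (4.61, 4.00 and 3.54). The range of Psat1, up to 5.79, also reached that of Mthfd2, from 5.72. By mean, Fgf21 had moved from the fourth place to the last, at 1.06 (SD 0.72, n = 3), overlapping with Ddit3 at 1.07 (SD 0.28).

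In control adipose tissue Phgdh stood far above the rest at 137 (SD 5.9, n = 3) CPM per kilobase. Asns, Psat1 and Atf4 overlapped at 47.5, 47.0 and 44.6, followed by Chac1 and Ddit3, which overlapped, at 9.11 and 8.89. Shmt2 and Trib3 overlapped with each other at 5.46 and 5.38, and also with Chac1, whose range was 4.91 to 12.3. Mthfd2 at 1.93 and Fgf21 at 0.597 were lowest. In OA-AP adipose tissue Phgdh and Atf4 overlapped at 81.3 (SD 16) and 67.1 (SD 2.5). Mthfd2 had passed Trib3, at 5.30 (SD 0.92) against 1.87 (SD 0.78), and Fgf21 at 1.58 overlapped with Trib3.

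**Figure D4:**
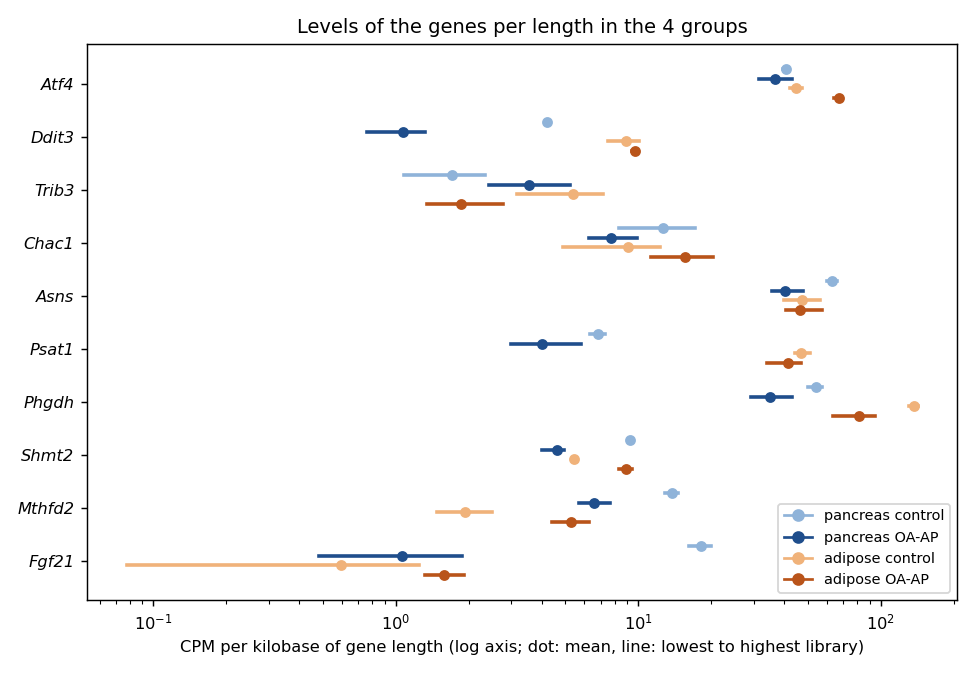
Levels are plotted in CPM per kilobase of gene length on a log axis, with a dot for the mean and a line from the lowest to the highest library of each group; scaling was within each tissue, so levels are to be compared within a tissue. Asns, Phgdh and Atf4 lead in the pancreas, Phgdh leads in adipose tissue, and Fgf21 drops from 18.1 to 1.06 in the pancreas.

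The control pancreas was also compared with control adipose tissue in the joint fit. With joint TMM factors 8 of the 10 genes were higher in the pancreas, against 26.0% of 17046 genes, and 1 (Psat1) was lower, against 29.4%, or 55.5% in either direction. This comparison rests heavily on the scaling, since library totals move the median of all genes by -2.45. Of the 17046 genes, 15368 then passed, 1140 of them as higher in the pancreas. Of the 10 genes, 2 were then higher and 5 lower. The 2 were Fgf21, at 6.92 (SE 0.67, adjusted p = 5.83e-06) with joint TMM factors and 4.46 with library totals, and Mthfd2, at 4.81 (SE 0.23, adjusted p = 1.10e-08) and 2.34. Psat1 was lower at -0.81 (SE 0.25, adjusted p = 0.0151) and -3.29. Atf4 changed sign, from 1.85 to -0.62, as did Ddit3, Trib3, Asns and Phgdh. Without pancreas control replicate 1 or 2 the Psat1 call ended (-0.75 and -0.93, adjusted p = 0.0999 and 0.0505). Fgf21 and Mthfd2 were higher in control pancreas than in control adipose tissue under both scalings.

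The genes most like Atf4 across the 11 libraries, by Pearson's r of log2 CPM with joint scaling, were Chka, Yrdc, Eif2b2, Slc7a1 and Tpd52 (r from 0.989 to 0.997). Of the 10 genes, Mthfd2 was nearest at 0.985 and Psat1 was farthest at -0.774. The points share the split into 2 tissues and the joint scaling, so these values include the levels between tissues and carry no test.

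Upstream of ATF4, of 18 eIF2 kinases, eIF2 and eIF2B subunits and their regulators, 3 rose and 2 fell in the pancreas (11 and 0 with library totals), and 4 rose and 0 fell in adipose tissue under both scalings. For this list and those below, the shares of all tested genes with TMM factors were 16.2% up and 13.5% down in the pancreas. They were 12.1% and 13.0% in adipose tissue, and 10.5% and 10.8% in the interaction test. Library-total counts stand against other numbers. With library totals 6349 of 12884 pancreas genes passed, 5843 of them upwards. In adipose tissue 4250 of 15839 passed, 1365 of them upwards, and in the interaction test 6662 of 17046, 6270 of them upwards. The pancreas counts of this list with TMM factors, 16.7% up and 11.1% down, were near the shares of all tested genes. In the pancreas Gcn1l1, the activator of the amino acid sensor GCN2, rose by 1.94 on the log2 scale (SE 0.15, adjusted p = 0.000172), and Eif2s1, the eIF2 subunit that is phosphorylated, rose by 0.83 (adjusted p = 0.00472). The third gene that rose there was the eIF2 kinase gene Eif2ak3, by 1.18 (SE 0.23, adjusted p = 0.00726). Eif2s2 fell by 0.74 in the pancreas, and was at -0.04 with library totals. Dnajc3 fell by 0.64 (adjusted p = 0.00710), and was at 0.07 with library totals. In adipose tissue Eif2s1 rose by 1.14 (SE 0.10, adjusted p = 0.000653). Ppp1r15a, which encodes the phosphatase subunit GADD34 that ends the response, rose by 0.87, and the eIF2B subunit gene Eif2b2 rose by 0.75 (adjusted p = 0.000757 and 0.00117).

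Of the bZIP and related factors that pair with ATF4 or act beside it, 5 of 10 tested rose in the pancreas and 1 fell (7 and 0 with library totals), and 3 of 11 rose in adipose tissue and 1 fell. Cebpb, a C/EBP partner induced in inflammation, rose in both, by 2.19 (SE 0.30, adjusted p = 0.00157) in the pancreas and 1.51 (SE 0.15, adjusted p = 0.000814) in adipose tissue. Nupr1, a stress-induced chromatin protein first described in pancreatitis, rose by 1.66 (SE 0.23, adjusted p = 0.00140) and 2.28 (SE 0.41, adjusted p = 0.00724). Cebpg rose in the pancreas by 1.07 (adjusted p = 0.00137), and Cebpa, which maintains adipocytes, fell in adipose tissue by 1.30 (adjusted p = 0.00369). In the pancreas Cebpa did not pass the test, at 0.47 (adjusted p = 0.0380, under the 1.5-fold cut-off).

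A longer list of ATF4 targets gave 11 of 35 genes lower and 7 higher in the pancreas, and 4 of 36 lower and 9 higher in adipose tissue. With library totals the pancreas counts were 5 lower and 13 higher. In the pancreas the smallest p-values belonged to Pycr1 and Aldh18a1, enzymes of proline synthesis, and Cth, which makes cysteine. Pycr1 went from a mean of 54.7 to 4.51 CPM, a log2 change of -3.60 (SE 0.17, adjusted p = 3.38e-05), and Cth from 17.7 to 1.09 CPM, a log2 change of -4.00 (SE 0.23, adjusted p = 5.22e-05). Aldh18a1 fell by 2.22 (SE 0.17, adjusted p = 0.000131) in the pancreas and rose by 1.25 (SE 0.13, adjusted p = 0.000945) in adipose tissue. Among the 7 genes of this list that were higher in the pancreas, Bbc3 rose by 1.91 (SE 0.22, adjusted p = 0.000693). Ddit4, also among the 7, rose by 3.66 (SE 0.36, adjusted p = 0.000704). In adipose tissue Slc7a5, a carrier of large neutral amino acids, rose by 2.21 (SE 0.19, adjusted p = 0.000562), and Bcat1, which transaminates branched-chain amino acids, rose by 2.42 (SE 0.28, adjusted p = 0.00135). In the interaction test 14 of 36 were lower in the pancreas and 5 higher (7 and 13 with library totals).

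Of the serine and one-carbon genes other than the 10, 5 of 21 fell and 3 rose in the pancreas (3 and 6 with library totals), and 1 of 23 fell and 5 rose in adipose tissue. Aldh1l2, the mitochondrial enzyme that oxidises formyl-tetrahydrofolate, went from a mean of 90.6 to 4.21 CPM in the pancreas, a log2 change of -4.43 (SE 0.21, adjusted p = 3.38e-05). This fall was of the size of that of Fgf21. Gcsh, a subunit of the glycine cleavage system, fell by 2.34 (adjusted p = 0.000181), and Psph, the last enzyme of serine synthesis, fell by 2.05 (adjusted p = 0.00494). In adipose tissue Mthfd1l, the next mitochondrial step after Mthfd2, rose by 1.66 (SE 0.19, adjusted p = 0.00133). Gldc of the glycine cleavage system rose by 2.14 and Fpgs, which retains folates in cells, by 0.97 (adjusted p = 0.00210 and 0.00346).

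Around Fgf21, the receptors, co-receptor and regulators on the list had 4 of 12 genes lower and 1 higher in the pancreas (1 and 3 with library totals), and 5 of 11 lower and 0 higher in adipose tissue. Klb, the co-receptor that gives a cell its response to FGF21, fell in the pancreas by 1.17 (SE 0.25, adjusted p = 0.00995) and was at -0.46 with library totals (adjusted p = 0.218). In adipose tissue it fell by 1.13 (SE 0.14, adjusted p = 0.00188), from a mean of 65.7 to 30.1 CPM. Ppargc1a, a coactivator of mitochondrial genes, fell in both, by 2.87 (adjusted p = 0.00718) and 2.11 (adjusted p = 0.000569). Fgfr2 fell in adipose tissue by 1.87 (adjusted p = 0.00702), and Rxra, a nuclear receptor, rose in the pancreas by 1.59 (adjusted p = 0.000197).

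The other arms of the unfolded protein response, run by IRE1 and ATF6, had 7 of 20 genes lower and 1 higher in the pancreas (3 and 4 with library totals), and 9 of 20 higher and 0 lower in adipose tissue (6 and 0). In the pancreas Sec61b, a translocon subunit, fell by 1.60, Creld2, a chaperone-like protein, by 1.65 and Derl3, a degradation factor, by 1.74 (adjusted p = 0.000182, 0.000238 and 0.000291). In adipose tissue Manf rose by 1.49, Xbp1, the factor spliced by IRE1, by 1.80 and Hspa5, which encodes the chaperone BiP, by 1.31 (adjusted p = 0.00154, 0.00198 and 0.00319). Xbp1 was also the 1 gene of the list that was higher in the pancreas, by 0.97 (SE 0.24, adjusted p = 0.0183). Hspa5 stood at 1.00 in the pancreas (SE 0.37, adjusted p = 0.0825) and did not pass the test, though the groups did not overlap. In the interaction test 9 of 20 were lower in the pancreas and 0 higher (6 and 1 with library totals).

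Around Chac1, the genes of glutathione turnover and Notch1, which CHAC1 inhibits, had 3 of 11 higher and 3 lower in the pancreas (5 and 0 with library totals), and 2 of 10 higher and 3 lower in adipose tissue. In the pancreas Notch1 rose by 1.59 (SE 0.20, adjusted p = 0.000989) and Oplah, the 5-oxoprolinase that takes up the product of CHAC1, rose by 2.06 (adjusted p = 0.00157). Ggt1, the gamma-glutamyltransferase, fell by 0.71 (adjusted p = 0.00563) and was at 0.01 with library totals. In adipose tissue Ggct, which acts on gamma-glutamyl amino acids, rose by 1.74 and Gsr, the glutathione reductase, by 1.88 (adjusted p = 0.000732 and 0.00341), and Cbs fell by 0.61 (adjusted p = 0.0101).

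**Figure D5:**
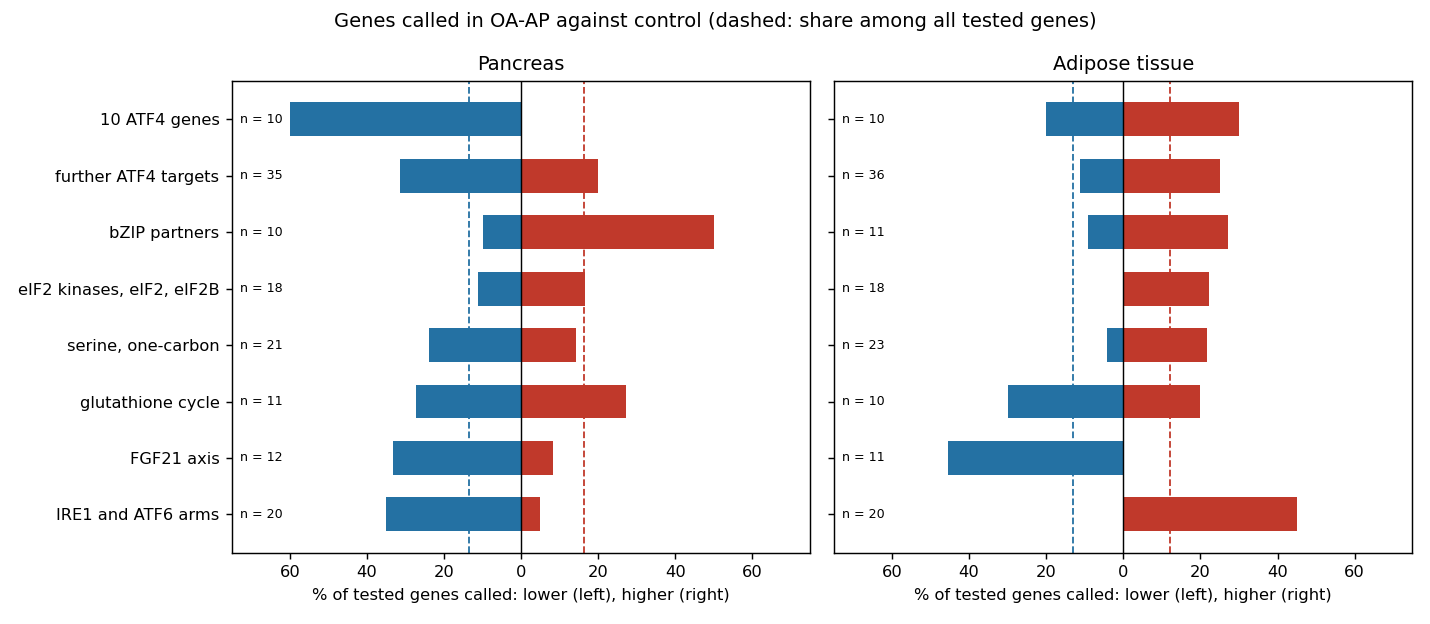
Bars give the percentage of the tested genes of each list that passed the test downwards (left) or upwards (right) in OA-AP against control, in the pancreas and in adipose tissue; dashed lines mark the share among all tested genes. In the pancreas the bars of the 10 ATF4 genes, the FGF21 axis and the IRE1 and ATF6 arms point mostly left (6 of 10, 4 of 12 and 7 of 20) with TMM factors. With library totals the 10 genes had 2 lower and 1 higher, the FGF21 axis 1 and 3, and the IRE1 and ATF6 arms 3 and 4. Under that scaling 5843 of the 6349 pancreas genes passing were higher. In adipose tissue the IRE1 and ATF6 arms point right (9 of 20).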

How the data were processed

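RNA from pancreas and adipose tissue was sequenced in 11 libraries. Per the labels, the authors trimmed reads with Trim Galore 0.6.6, checked them with fastp 0.20.1 and counted them with featureCounts 2.0.1 on GRCm38; the study's methods name STAR for alignment. The deposited values are raw counts per gene, 1 table per tissue; 0 per-sample columns were left unused. The annotation release and strand setting are not given in the sources used here. Genes were kept by filterByExpr, scaled with TMM factors and tested with edgeR 4.0.16 (R 4.3.3; glmQLFit, glmQLFTest, robust), with Benjamini-Hochberg adjustment over all tested genes; a call needs an adjusted p under 0.05 and a 1.5-fold change (adjusted p alone for the tissue difference). The SE is the absolute log2 change over the square root of F. Tests were checked on simulated data. Depth limits the precision of low genes such as Fgf21 in adipose tissue. Named genes were the 10 members, up to 3 called genes per list and tissue by smallest p, and the 5 most like Atf4. Some further list genes and cell type markers were named for comparison. The members and lists were chosen with earlier results of these data known. Same-numbered replicates did not deviate together (r from -0.162 to 0.090), so samples were not paired by number. With 2 or 3 libraries per group these values cannot exclude a shared mouse. DESeq2 1.42.0, other scalings, filters, fold cut-offs and left-out libraries were alternatives. Promoter sequences are from RefSeq.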

Additional observations from a re-analysis of the deposited data

Results flagged for a closer look

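The change of 6 of the 10 genes differed between pancreas and adipose tissue in the interaction test of the joint edgeR fit, against 21.3% of 17046 genes. As the log2 change in the pancreas minus that in adipose tissue, the values were -5.51 for Fgf21, -2.51 for Mthfd2, -2.08 for Ddit3, -1.70 for Shmt2, -0.73 for Atf4 and 2.56 for Trib3. The direction was that of a lower change in the pancreas for all but Trib3. With library totals 4 of the 10 passed downwards and 2 upwards, Trib3 and Phgdh (0.97 for Phgdh, adjusted p = 0.00674 in the same test). Of the 17046 genes, 6662 passed with library totals, 6270 of them upwards. The value of Atf4 changed sign with library totals, and the calls of Atf4 and Trib3 ended when pancreas control replicate 2 was left out.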

How the results depend on the processing

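With library totals in place of TMM factors, genes passing numbered 6349 in the pancreas, 4250 in adipose tissue, 6662 for the tissue difference and 15368 between control tissues, against 3834, 3981, 3636 and 9454. Of the 10 genes, 1 was higher and 2 lower in the pancreas, 1 was higher in adipose tissue, 2 were higher in the tissue difference, and 2 were higher and 5 lower between control tissues. With library totals the sign turned for Asns (0.064), Phgdh (0.081), Ggt1 (0.0099) and Atf4 (0.56) in the pancreas, for Ddit3 in adipose tissue (-0.031), for Atf4 (0.11), Asns (0.24) and Psat1 (0.26) in the tissue difference, and between control tissues for Atf4 (-0.62), Ddit3 (-1.57), Trib3 (-2.11), Asns (-0.090) and Phgdh (-1.84); the scaling itself shifts every gene by about the same step. The share of upward calls went from 54.5 to 92.0% in the pancreas, from 48.1 to 32.1% in adipose tissue, from 49.3 to 94.1% for the tissue difference and from 46.9 to 7.42% between control tissues.

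Without a filter on low counts 1 of the 10 was higher in the pancreas (Trib3). A minimum of 10 counts in every sample left 5808 genes passing between control tissues. No fold cut-off gave 5835 genes in adipose tissue, and a 2-fold cut-off left 2464 genes in the pancreas and 2228 in adipose tissue, 1 of the 10 higher and 1 lower in adipose tissue, and 0 lower between control tissues. The labels do not say whether the replicate numbers pair the samples. The fit with the replicate number as a block gave 8 of the 10 lower in the pancreas, and 0 higher in the tissue difference, where Trib3 was at adjusted p = 0.0511.

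Leaving out each replicate in turn gave 1495 to 4265 genes and 4 to 7 of the 10 lower in the pancreas, 2865 to 4476 genes with 2 to 4 of the 10 higher and 1 to 2 lower in adipose tissue, 2334 to 3857 genes with 0 to 1 higher and 4 to 7 lower for the tissue difference, and 7980 to 9695 genes with 7 to 8 higher and 0 to 1 lower between control tissues. For values that passed no test the sign also turned, over ranges of -0.19 to 0.13 for Asns in adipose tissue (above 0 without control replicate 3 or OA-AP replicate 2 or 3), -0.037 to 0.32 for Phgdh in the tissue difference (below 0 without pancreas OA-AP replicate 3) and -0.38 to 0.76 for Trib3 between control tissues (below 0 without pancreas control replicate 1). With 1 control pancreas left, the lone library is assumed to vary like the other groups. Of the single-gene values under all alternatives, 1127 kept direction and side of the threshold, 65 lost the call, 13 gained it and 18 turned; where no value is given for a change, the cause was not tested. DESeq2 gave 6 lower and 0 higher in the pancreas and 3 higher and 2 lower in adipose tissue.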
